A study of Mus musculus with 5464 samples.

Results

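Endothelial cells (EC) of the kidney from 11-week-old BTBR ob/ob mice were compared with those of Lean littermates, over all vessel types together. The cells belonged to the groups by their labels, and every cell of the 11-week plates was used: 2242 of the 5464 cells of the series, on 9 of its 22 plates. There were 867 ob/ob cells on 4 plates (1052s, 1053s, 1054s and 1056s) and 1375 Lean cells on 5 plates (1050s, 1051s, 1058s, 1059s and 1060s). The labels name the strain C57BL/6, the genotype Lean or Obese and the disease state as control or diabetic nephropathy, whereas the study's methods describe female mice of the BTBR background. In ob/ob mice both copies of Lep, which encodes the hormone leptin, are mutated, and the Lean littermates carried at least 1 working copy. The study removed the renal papilla, digested the remaining kidney with Liberase, stained the suspension for Pecam1 and with the live-cell dye Calcein AM, and sorted single cells into 384-well plates for SmartSeq2, a full-length RNA-seq method for single cells. The study used 3 mice per genotype at this age, but no label ties a cell to an animal.

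The endothelium of the kidney is a chain of specialised vessels. Afferent arterioles (AA) feed the glomerular capillaries (GEC), which filter blood, efferent arterioles (EA) drain them, and peritubular capillaries, veins and the vasa recta serve the tubules and the medulla. Mice without leptin overeat, become obese and insulin resistant, and on the BTBR background develop marked hyperglycaemia and albuminuria, so that their endothelium meets high glucose and lipid levels. Capillary EC take up lipids released by lipoprotein lipase and glucose through Slc2a1, and they answer inflammatory signals with chemokines, adhesion molecules and acute-phase proteins.

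The level of a gene on a plate is its count in all cells of that plate per 500000 counts. A plate held cells of 1 genotype, so that plate and genotype cannot be told apart, and plates are technical units. Since no label gives the animals, each genotype counts as 1 sample and no test between genotypes was made. A log2 ratio is that of the ob/ob mean over plates to the Lean mean, with 1 added to each. A gene was called when its ratio passed 1.5-fold and no ob/ob plate overlapped with any Lean plate.

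The plates held 93 to 350 cells and 37449859 to 100203356 counts, and thinned to 50000 counts per cell the median number of genes per cell was 1763.5 to 2796 on ob/ob and 1936.5 to 2932 on Lean plates. Plates of a genotype did not always resemble each other most: 1052s and 1053s were nearest to Lean plate 1050s, and 1056s and 1060s were nearest to each other. All 12 markers of endothelium passed the level filter, with a summed level of 7969 to 10956 on ob/ob and 7401 to 9683 on Lean plates. The defining genes Pecam1 (1069.8 to 1367 against 1030.1 to 1285) and Cdh5 (127 to 186 against 106 to 164) were present on every plate. Lep itself was not analysed here, so the targeted gene gives no check of the labels.

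Plates 1050s and 1051s stood apart. Xist, the noncoding RNA of the inactive X chromosome in female cells, was at 0.049 and 0.030 on them and at 111 to 256 on the other 7 plates. Its antisense gene Tsix was at 0 on both of these plates and at 33.4 to 156 elsewhere, and the Y-linked genes Ddx3y and Eif2s3y had at most 0.019 on any plate. Xist and Tsix overlap on opposite strands, and the counting is not stated to use strand. The labels call both plates Lean, and the methods say that all mice were female by their external genitalia. The methods single out some mice as showing expression of Tsix and Xist. Here it was the other way round, with both genes present on 7 plates and nearly absent on 1050s and 1051s. All 51 called genes named here were called without both plates too. Groups that do not overlap cannot come to overlap when plates are left out, so that part of the call could not fail. Many of these genes were also chosen because they stay past the fold whichever plate is left out. The result is therefore a weak check on plates 1050s and 1051s. Gene list medians that change sign without both plates are given both ways.

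Of 9776 genes with a mean level of at least 5, 81 (0.829%) were called higher and 117 (1.20%) lower in ob/ob. The fold alone was passed by 395 genes (4.04%) upwards and 696 (7.12%) downwards, and plates did not overlap for 111 genes (1.14%) upwards and 169 (1.73%) downwards. The median log2 ratio of all genes tested was -0.066, with 58.0% of ratios below 0. Of the 198 called genes, 149 stayed past the fold when any 1 plate was left out, 61 of them higher and 88 lower. Without plates 1050s and 1051s the call took in 191 higher and 269 lower genes, among them 75 of the 81 and 104 of the 117; fewer plates leave fewer chances to overlap. The split depended on the scaling: TMM factors gave 98 higher and 82 lower genes (74 and 71 of those above) and median-of-ratios size factors 114 and 66 (76 and 61), shifting the median of all genes to 0.0056 and 0.036. Of the 51 called genes named here, Xdh and Rrp15 were not called with either factor, and Nfkbid and Ibtk not with size factors.

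**Figure D1:**
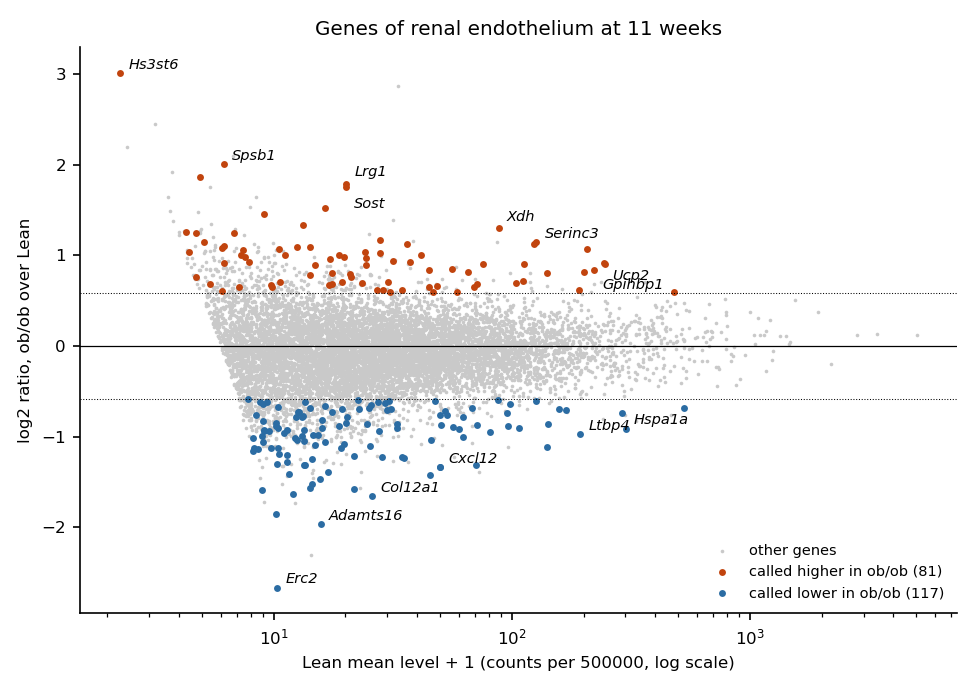
Log2 ratio of ob/ob over Lean at 11 weeks against the Lean mean level plus 1 (counts per 500000, log scale) for the 9776 genes tested; orange points are the 81 genes called higher, blue points the 117 called lower, grey points all others, and dotted lines mark 1.5-fold. Hs3st6 at 3.01 and Erc2 at -2.66 are the called genes farthest from 0, and called genes of high level such as Ucp2 and Hspa1a lie closer to the dotted lines.

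The largest called ratio belonged to Hs3st6 (chr17:24752988-24758690), which encodes a heparan sulfate 3-O-sulfotransferase, an enzyme that modifies the sugar chains of the endothelial glycocalyx. Its level on plates 1052s, 1053s, 1054s and 1056s was 22.1, 20.4, 15.1 and 11.7, and on Lean plates 1050s, 1051s, 1058s, 1059s and 1060s it was 2.50, 2.20, 1.15, 0.336 and 0.152. Every ob/ob plate was above every Lean plate by a wide gap, with 17.3 ± 4.77 (SD, n = 4 plates) against 1.27 ± 1.06 (SD, n = 5 plates) and a log2 ratio of 3.01 (2.85 to 3.22 when 1 plate was left out). Summed over all cells, the level was 16.5 (95% exact Poisson interval 16.2 to 16.9) in ob/ob and 1.32 (1.24 to 1.41) in Lean; such intervals cover counting error only, and reads here carry no molecular identifiers. Because the Lean level is near the added 1, the log2 ratio was 3.67 with 0.1 added and 1.83 with 5 added.

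Several of the largest ratios belonged to secreted and signalling proteins. Lrg1 (chr17:56119678-56121946), a secreted leucine-rich glycoprotein that modulates TGF-beta signalling in EC, was at 120.1, 69.8, 37.5 and 45.0 on the ob/ob plates and 11.8, 22.9, 7.68, 29.0 and 24.1 on the Lean plates, in the plate order above. The lowest ob/ob plate, 1054s, lay above the highest Lean plate, 1059s, and the log2 ratio was 1.78 (1.37 to 1.98). Serpina3n, an acute-phase inhibitor of serine proteases, was at 34.0, 11.5, 11.6 and 10.5 against 7.21, 3.03, 1.07, 8.20 and 0.018. Plate 1052s carried much of this difference: the log2 ratio of 1.87 was 1.31 without it. Spsb1, an adaptor of a ubiquitin ligase that acts on inducible nitric oxide synthase, was at 28.9, 34.4, 19.2 and 12.6 against 3.54, 10.6, 2.65, 5.85 and 3.14, a log2 ratio of 2.01. Lbp, which carries bacterial lipopolysaccharide to its receptor, had its high values on 1054s and 1056s (54.8, 55.0, 107 and 93.6 against 27.1, 28.1, 26.6, 47.5 and 46.4; log2 ratio 1.12).

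The chemokine list held 12 genes tested, of which 2 were called higher, Lbp and Cxcl16, and 1 lower, Cxcl12, with a list median of 0.078 (-0.025 without plates 1050s and 1051s). Cxcl16, a membrane-bound chemokine that also takes up oxidised lipids, was at 43.2, 31.7, 79.9 and 40.1 on ob/ob and 27.4, 22.6, 18.2, 28.6 and 19.3 on Lean plates. Its groups were close to each other, with 1053s just above 1059s, and the log2 ratio was 1.04. Cxcl12 (chr6:117168535-117181368), the arterial ligand of Cxcr4, went the other way, at 21.7, 16.5, 22.2 and 14.7 against 55.8, 53.4, 55.4, 37.3 and 42.8. Its lowest Lean plate was 1059s, still above all ob/ob plates, and the log2 ratio was -1.34 (-1.42 to -1.24). Irak1, a kinase of the interleukin-1 receptor pathway, was lower as well (5.34 to 7.06 against 14.7 to 30.2; log2 ratio -1.57), as was Nfkbid, a nuclear inhibitor of NF-kappa-B (0.013 to 6.68 against 7.62 to 18.7; -1.41), and Tnfsf9, the ligand of the T-cell receptor 4-1BB (3.71 to 4.55 against 6.85 to 17.9; -1.52). The adhesion and coagulation list held no called gene among 14: Sele, the E-selectin of activated endothelium, was at 44.0, 15.7, 3.05 and 6.35 against 5.02, 6.54, 4.65, 3.18 and 2.67, so that only 1052s and 1053s were above the Lean plates. Icam1 was at 236 to 331 against 115 to 325 and overlapped. In the interferon list 6 of 26 ratios were above 0 and none was called (median -0.21), and the antigen presentation list had 12 of 16 above 0, none called (median 0.15).

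Genes of lipid and glucose supply were among those called higher. Gpihbp1 (chr15:75596630-75598213), which anchors lipoprotein lipase on the capillary surface, was at 425, 434, 381 and 341 on ob/ob plates and 232, 162, 280.4, 209 and 217 on Lean plates. The lowest ob/ob plate, 1056s, was above the highest Lean plate, 1058s, with a log2 ratio of 0.84 (0.75 to 0.94). Ucp2 (chr7:100493337-100499629), a carrier of the inner mitochondrial membrane linked to fatty acid oxidation, was at 396, 544, 345 and 546 against 229, 238, 281, 271 and 193, a log2 ratio of 0.91 (0.82 to 1.03). These were the 2 called genes among 16 tested of the fatty acid and PPAR list, with 9 ratios above 0 and a median of 0.12. The sign of that median turned without plate 1054s (-0.076) and without cells rich in markers of other cell types (-0.14). The list's summed level did not overlap, at 1991 to 2509 on ob/ob and 1445 to 1856 on Lean plates. That sum includes the 2 called genes, Ucp2 and Gpihbp1, so it gives no separate result for the other members. The fatty acid binding proteins Fabp4 (0.49) and Fabp5 (0.51) and the scavenger receptor Cd36 (0.31) had ratios above 0 with overlapping plates, and Tcf15, a transcription factor that drives fatty acid transport in capillary EC, had -1.45 with overlapping plates.

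Slc2a1, the glucose transporter Glut1, was at 86.1, 79.0, 80.2 and 70.6 on ob/ob plates and 58.2, 32.9, 15.0, 48.4 and 64.3 on Lean plates. The ob/ob plates were close together while the Lean plates spread widely, from 1058s to 1060s, and the log2 ratio was 0.84 (0.62 to 1.01). It was the only called gene of 16 tested in the glucose and glycolysis list, of which 14 had ratios above 0 (median 0.30, or 0.14 without plates 1050s and 1051s). Xdh (chr17:73883895-73950397), the oxidoreductase that makes uric acid from purines, was at 137, 263, 202 and 264 against 93.9, 108, 62.9, 44.9 and 125. Plate 1052s was only just above Lean plate 1060s, and the log2 ratio was 1.31 (1.14 to 1.47). Nqo1, a quinone reductase of the oxidative stress response, was at 21.0, 13.9, 38.0 and 12.5 against 12.0, 9.06, 7.11, 11.5 and 11.3, highest on 1054s, with a log2 ratio of 1.00 that was 0.59 when that plate was left out.

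Nqo1 was the only called gene of 20 tested in the oxidative stress and metal list (median -0.034, or 0.19 without plates 1050s and 1051s). The largest ratio of that list, 2.86, belonged to Gpx3, a secreted glutathione peroxidase made mainly by proximal tubule cells, which was named after its values were seen. Its level was 421, 406, 117 and 22.9 on ob/ob plates and 53.5, 35.5, 36.8, 22.0 and 14.2 on Lean plates, so that 1056s lay among the Lean plates. Summed markers of tubule cells were also highest on 1052s and 1053s. The 6 proximal tubule markers summed to 55.2, 52.6, 23.3 and 6.38 on ob/ob and 18.5, 12.5, 5.48, 7.00 and 5.60 on Lean plates, and 1 of the 6 passed the level filter, Slc34a1, the phosphate transporter (log2 ratio 2.45, overlapping). The 7 markers of other tubule segments summed to 6.33 to 84.4 and 14.9 to 33.8, with Aqp2 at 2.20 and Umod at 0.71, both overlapping. The part of tubule RNA in these values was not tested. Of the 81 genes called higher, 48 were called also in the 1709 of 2242 cells with at most 100 per 500000 of other cell type markers (Podxl not counted), and of the 117 called lower 58 were. With the full marker list and a limit of 500, 1606 cells remained, in which 54 and 55 of these genes were called. Markers of fibroblasts, leukocytes, red cells and platelets summed to at most 15.2 on any plate, and those of mural and mesangial cells to at most 23.2. The podocyte list summed to 247 to 426 and 246 to 350.3, nearly all of it Podxl and Synpo, and its defining gene Nphs1 was at most 0.068 on any plate.

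Secreted factors and matrix genes differed in both directions. Sost (chr11:101962458-101967015), the secreted Wnt inhibitor sclerostin, was at 60.4, 68.4, 55.4 and 81.7 on ob/ob plates and 14.0, 26.5, 12.0, 39.4 and 3.20 on Lean plates. Each ob/ob plate was above the highest Lean plate, 1059s, and the log2 ratio was 1.75 (1.49 to 2.18). Mfap2, a protein of elastic microfibrils, was at 25.1, 33.5, 35.8 and 35.8 against 5.95, 18.8, 15.2, 9.47 and 11.9 (log2 ratio 1.34). In contrast Ltbp4, which holds latent TGF-beta in the matrix, was at 119, 80.9, 94.3 and 96.7 against 222, 201, 189, 124 and 222, a log2 ratio of -0.97 (-1.09 to -0.89), and its groups came close on 1052s and 1059s. It was the only called gene of 17 tested in the TGF-beta and BMP list (median 0.13). Col12a1, a collagen that decorates fibrils, was at 7.82, 4.73, 10.3 and 6.20 against 20.2, 24.9, 20.9, 18.3 and 40.6 (log2 ratio -1.65), and the metalloproteinase Adamts16 was at 2.19, 5.36, 2.50 and 2.14 against 10.7, 9.56, 29.1, 17.0 and 7.49 (-1.96). Of the 23 genes tested in the matrix and basement membrane list none was called; 13 had ratios above 0 (median 0.11), with Col15a1 at -1.06 and Fbln2 at -0.65.

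Vegfc, a growth factor of lymphatic and venous endothelium, was the only called gene of 22 tested in the VEGF, Notch and angiopoietin list. Its level was 16.5, 4.87, 7.23 and 14.7 on ob/ob and 23.6, 22.0, 23.6, 21.6 and 30.8 on Lean plates, lowest on 1053s and 1054s, with a log2 ratio of -1.10 (-1.35 to -0.87). The receptors went the other way by a smaller margin: Kdr, the main VEGF receptor, was at 734, 856, 815 and 787 against 640.4, 715, 648, 589.9 and 629, which did not overlap but was a log2 ratio of 0.31, under the fold. Tek, the angiopoietin receptor, was at 404 to 699 against 239.9 to 552 (0.39, overlapping) and Notch4 at 80.9 to 125 against 61.1 to 136 (0.10). Notch ligands of arterial EC had ratios below 0 with overlapping plates, with Jag1 at -0.99 and Dll4 at -0.50. No gene was called in the lists that follow: vascular tone (median 0.038, Edn1 -0.73 and Kcnn4 -0.94), fenestrae, glycocalyx and permeability (median 0.0073, Plvap 0.51 and Cldn5 -0.53) and the insulin and IGF system (median -0.20, Igf1 -0.91 and Igfbp7 -0.47).

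**Figure D2:**
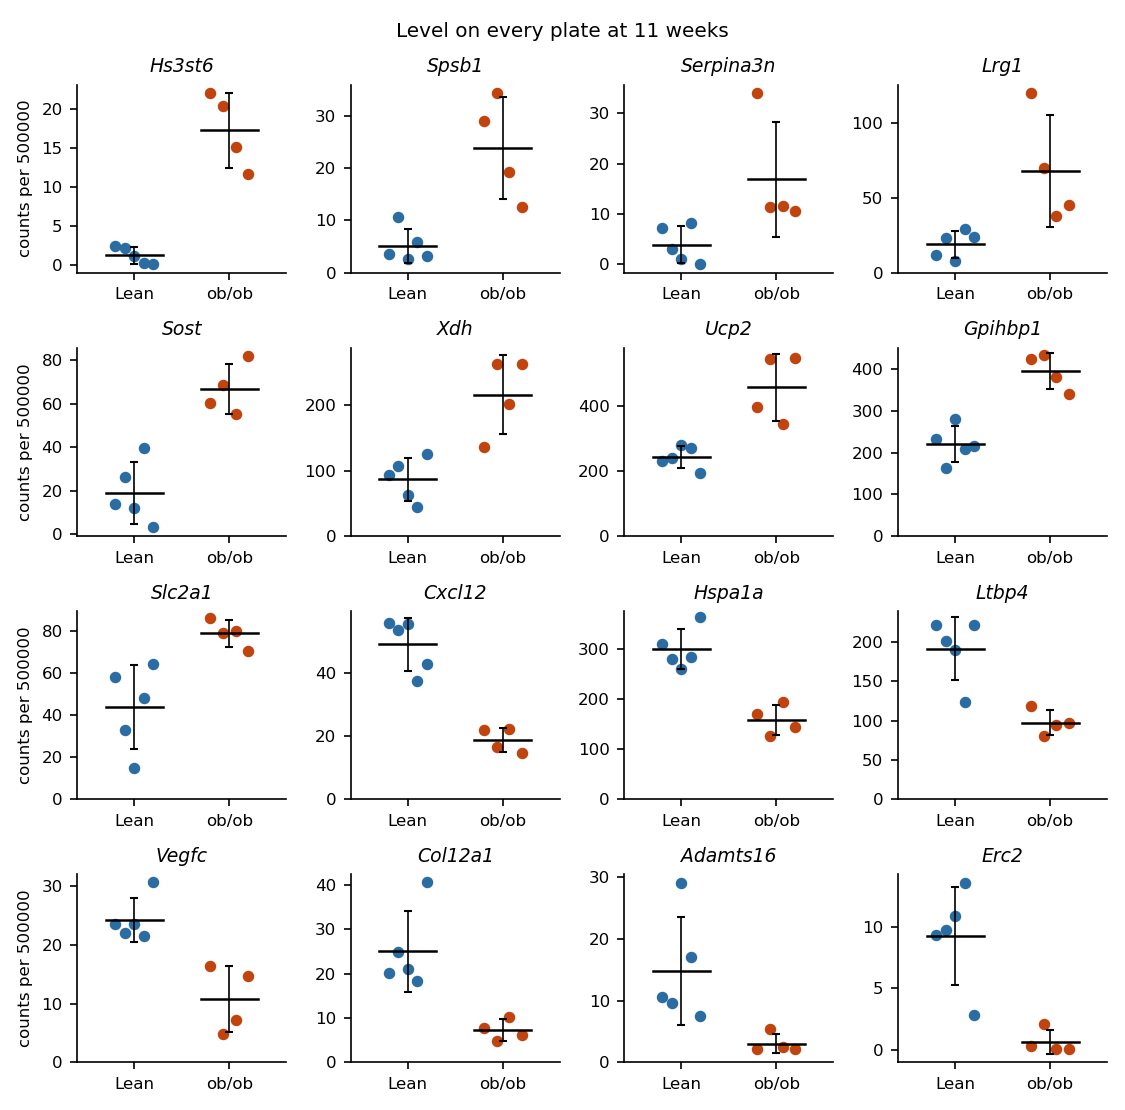
Level (counts per 500000) of 16 called genes on every plate at 11 weeks; blue points are the 5 Lean plates, orange points the 4 ob/ob plates, the horizontal line is the mean and the bar the SD over plates. In each panel the groups do not overlap, and in several 1 plate of a group lies close to the other group, among them Spsb1, Serpina3n, Xdh, Slc2a1, Ltbp4 and Erc2.

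Further genes called higher were Man1c1, a Golgi mannosidase that trims N-glycans (log2 ratio 1.52), the adhesion protein Sdk2 (1.45), the lysosomal amino acid transporter Pqlc2 (1.26), the Hedgehog acyltransferase Hhat (1.25), the transcription factor Foxc2 (1.24), the myosin Myo7a (1.17) and the FGF receptor substrate Frs2 (1.15). Foxc2, needed in lymphatic and venous valves, was at 15.0, 23.6, 10.6 and 11.2 against 5.28, 7.82, 6.15, 4.34 and 5.35. Serinc3, a membrane protein of serine-containing lipids, was at 284, 324, 295 and 215 against 175, 126, 103, 89.4 and 135 (log2 ratio 1.15, 1.05 to 1.30). The lowest ob/ob plate, 1056s, was above the highest Lean plate, 1050s.

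Erc2 (chr14:27622275-28478537), a scaffold of presynaptic active zones, had the lowest called ratio, at 0.307, 2.08, 0.030 and 0.088 on ob/ob plates and 9.38, 9.81, 10.9, 13.6 and 2.82 on Lean plates. Plate 1053s and Lean plate 1060s were close, and the other plates were far apart. The log2 ratio was -2.66 (-3.17 to -2.50), and it was -3.69 with 0.1 added and -1.35 with 5 added. The carboxylesterase Ces2g was at 17.7, 18.4, 9.69 and 17.8 against 42.5, 34.7, 61.3, 56.8 and 25.6 (log2 ratio -1.42). Its close relative Ces2e was at 39.2 to 124 against 77.0 to 245 (-0.63) and overlapped; reads of this family can be split between copies, so both values are uncertain. The remaining lower genes named by rule were Rtn4ip1 (-1.85), a mitochondrial oxidoreductase, Ibtk (-1.63), an inhibitor of Bruton tyrosine kinase, Polr3d (-1.56), a subunit of RNA polymerase III, Tppp3 (-1.47), a tubulin-binding protein, Nabp1 (-1.39), which binds single-stranded DNA, Arl2bp (-1.33), a partner of the small GTPase Arl2, and Agpat5 (-1.31), an acyltransferase of phospholipid synthesis. Their ob/ob means were 1.85 to 18.9 and their Lean means 9.25 to 49.0. Tppp3 had its highest levels on plates 1050s and 1051s (26.7 and 18.9) and a log2 ratio of -0.86 without these plates.

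Heat shock and immediate early genes, which react within minutes to stress and to tissue dissociation, had ratios mostly below 0. Of the 13 heat shock genes tested 12 had ratios below 0 (median -0.31) and 1, Hspa1a, was called. Hspa1a, the inducible Hsp70 chaperone, was at 171, 126, 194 and 145 on ob/ob plates and 309.7, 280.3, 259, 283 and 364 on Lean plates, with a log2 ratio of -0.91 (-1.02 to -0.81). The groups stood clear of each other, while Hsp90aa1 (-0.72), Dnaja1 (-0.46) and Dnajb1 (-0.45) overlapped. Hspa1b, a nearly identical neighbour of Hspa1a, was at 4.98, 3.83, 3.38 and 1.57 against 12.2, 10.0, 3.75, 5.16 and 5.74; reads shared by both copies can be lost or split, so their levels are uncertain. Of 19 immediate early genes 18 had ratios below 0 (median -0.34), and Ier3 was called (117, 105, 114 and 74.9 against 162, 179, 139, 156 and 205; log2 ratio -0.71). Fos (-0.44), Egr1 (-0.75) and Nr4a1 (-0.80) overlapped between groups. The summed level of the list overlapped too, at 3548 to 5403 and 4201 to 6647.

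The promoter windows of Hspa1a and Hspa1b are shown because these genes had the lowest ratios of the heat shock list (-0.92 for Hspa1b) and heat shock factor binds inverted repeats of GAA. The motif GAANNTTC, which reads the same on both strands, was found in the windows of 8 of the 10 heat shock genes with a window, against 9.04% of all 27025 genes with a window (7.86% of 32851 windows of 300 bases, 250 before to 50 after a gene's start; RefSeq, GRCm38.p6). Capitals mark the match. Both windows hold the same match, and they differ at 4 of 300 positions.
Hspa1a (chr17:34972107-34972406, minus strand)
Hspa1a: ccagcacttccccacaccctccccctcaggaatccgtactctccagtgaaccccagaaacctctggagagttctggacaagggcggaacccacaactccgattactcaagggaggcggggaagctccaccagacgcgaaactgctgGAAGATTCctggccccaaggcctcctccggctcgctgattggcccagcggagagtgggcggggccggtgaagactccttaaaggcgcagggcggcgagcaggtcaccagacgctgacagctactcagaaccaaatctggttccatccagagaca
Hspa1b (chr17:34959189-34959488, minus strand)
Hspa1b: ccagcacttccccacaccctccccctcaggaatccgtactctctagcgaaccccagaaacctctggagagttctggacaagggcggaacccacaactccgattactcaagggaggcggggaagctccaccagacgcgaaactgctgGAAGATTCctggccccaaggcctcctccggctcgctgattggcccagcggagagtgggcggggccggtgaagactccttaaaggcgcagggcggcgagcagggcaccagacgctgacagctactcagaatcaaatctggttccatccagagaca
A match describes the letters only.

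Clock genes and glucocorticoid-responsive genes had list medians of 0.39 and 0.38, above those of all other gene lists (marker lists aside) but the sex-linked genes (0.58), with no called gene in either. Per1, a period gene of the circadian clock that is also a glucocorticoid target, was at 95.9, 118, 26.8 and 88.2 on ob/ob and 35.9, 37.5, 18.1, 15.3 and 46.8 on Lean plates. Plate 1054s lay among the Lean plates, and the log2 ratio was 1.39. Cry1, a clock repressor, was at 15.1, 20.8, 24.2 and 3.08 against 1.55, 6.51, 8.70, 4.39 and 8.08 (1.29), with 1056s among the Lean plates, and Dbp, a clock output gene, was at 77.4, 93.5, 41.5 and 19.5 against 42.3, 44.2, 6.03, 14.3 and 13.5 (1.23). Arntl, which peaks in antiphase to Dbp and Per genes, had a ratio of -0.61. Fkbp5, a chaperone strongly induced by glucocorticoids, was at 41.7, 43.6, 2.68 and 13.6 against 11.3, 11.5, 12.9, 0.260 and 1.18 (1.65) and overlapped through 1054s. Leaving out plates 1050s and 1051s brought the clock median to 0.79. The labels give no hour of collection, and time of day and genotype cannot be told apart here. The Per1 window is shown with its E-box CACGTG in capitals; the E-box, bound by Clock and Arntl, was found in the windows of 5 of the 16 clock genes with a window and in those of 8.09% of all genes with a window (7.15% of windows).
Per1 (chr11:69098699-69098998, plus strand)
Per1: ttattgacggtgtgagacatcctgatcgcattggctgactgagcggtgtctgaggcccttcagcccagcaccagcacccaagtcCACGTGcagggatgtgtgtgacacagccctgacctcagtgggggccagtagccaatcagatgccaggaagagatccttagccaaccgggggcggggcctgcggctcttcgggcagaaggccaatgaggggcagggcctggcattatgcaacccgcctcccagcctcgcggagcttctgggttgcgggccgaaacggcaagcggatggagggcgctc

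Lists of mitochondrial and ribosomal genes had medians below that of all genes, and those of ribosomal proteins and nuclear mitochondrial genes rested on plates 1050s and 1051s. The 81 ribosomal protein genes tested had 79 ratios below 0 and none called (median -0.27), but their sum was 9442, 10522, 5624 and 4911 on ob/ob and 12782, 10571, 8141, 7647 and 6009.8 on Lean plates. High values fell on 1052s, 1053s, 1050s and 1051s in both genotypes, and without the last pair the median was 0.18. For the 77 nuclear genes of oxidative phosphorylation the median was -0.11 and turned to 0.35 without these plates. The 9 tested genes of the mitochondrial genome were all below 0 (median -0.43, or -0.31 without the pair), and their sum overlapped because of Lean plate 1060s (2122 to 3235 against 2235 to 3817). Translation initiation factors behaved differently: none of 50 was called and the median was -0.10, yet their sum did not overlap, at 3659.7, 3501, 3612 and 3604 on ob/ob and 3959, 3830.2, 3967, 4066 and 3809 on Lean plates. The lowest ratios of that list were those of Eif1a (-0.92) and Eif2ak2 (-0.90), both overlapping.

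The remaining lists had no called gene. The medians were 0.16 for cholesterol synthesis and uptake (Cyp51 0.73, Abca1 -0.68) and 0.034 for the integrated stress and unfolded protein response (Sesn2 0.79, Eif2ak3 0.67), the latter median being -0.070 without plates 1050s and 1051s. The leptin list had a median of -0.16, or 0.020 without these plates. In it, the receptor Lepr was at 22.1, 13.7, 11.7 and 4.02 on ob/ob and 22.3, 18.5, 11.7, 7.99 and 18.3 on Lean plates, which overlapped widely (log2 ratio -0.27), and the signal transducer Stat3 had a ratio of 0.27. Of the 100 protein-coding genes nearest to Lep on chromosome 6, 85 were matched and 43 tested, with 17 ratios above 0, a median of -0.11 and no call.

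**Figure D3:**
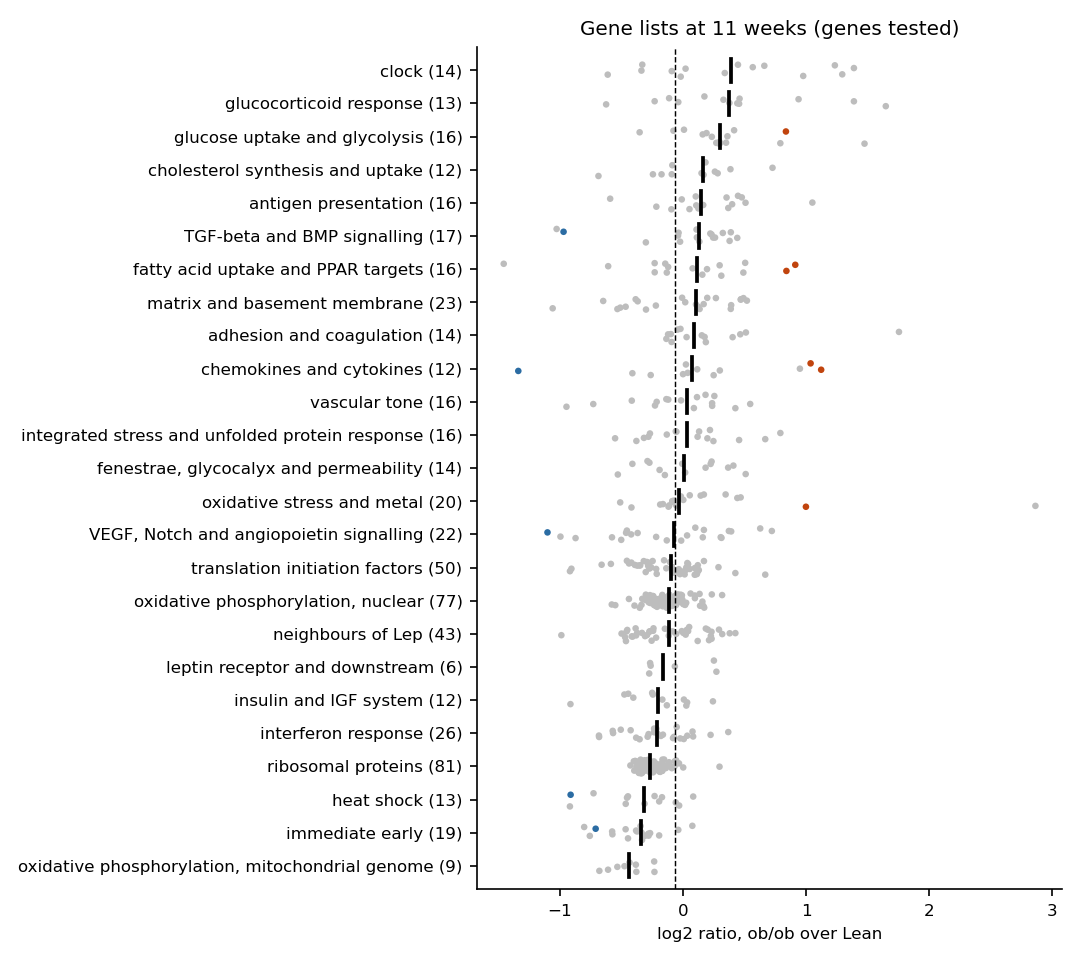
Log2 ratio (ob/ob over Lean, 11 weeks) of each tested gene of 25 lists (the sex-linked list is not drawn), with the number of genes tested in parentheses; black bars are list medians, orange and blue points are genes called higher and lower, and the dashed line is the median of all genes, -0.066. List medians run from -0.43 for the mitochondrial genome to 0.39 for the clock, and most lists hold no coloured point.

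The shares of cells by vessel markers differed between genotypes. Each cell was placed in the range of 1 of 5 vessel marker lists (GEC, capillary and venous, AA, EA, descending vasa recta or DVR) by its highest mean standardised level; a range is a region of expression and not a proven cell type, and 367 of 2242 cells lay within 0.1 of the score of another range. The capillary and venous range held 36.6, 45.0, 55.4 and 48.9% of cells on the ob/ob plates and 29.4, 28.2, 11.8, 27.7 and 32.7% on the Lean plates. Every ob/ob plate was above every Lean plate, and over all cells the share was 48.3% (95% exact binomial interval 45.0 to 51.7) against 26.5% (24.2 to 28.9), an interval for counting error only. The DVR range held 10.8, 7.50, 20.5 and 5.71% against 20.6, 16.5, 25.7, 14.2 and 33.6%, overlapping through 1054s. The AA range held 9.68, 8.50, 7.14 and 9.14% against 13.7, 11.8, 17.1, 9.69 and 9.57%, overlapping narrowly on 1052s. Shares of the GEC range (10.3 to 33.3% against 7.72 to 34.6%) and of the EA range (6.70 to 19.1% against 12.7 to 17.3%) overlapped widely. The shares differ from the study's own clusters at this age. Those clusters held fewer AA, EA and DVR cells than these ranges (241, 333 and 400). They held more cells in peritubular capillaries alone than the 783 of the capillary and venous range. The AA, EA and DVR ranges therefore hold cells that the study placed elsewhere.

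**Figure D4:**
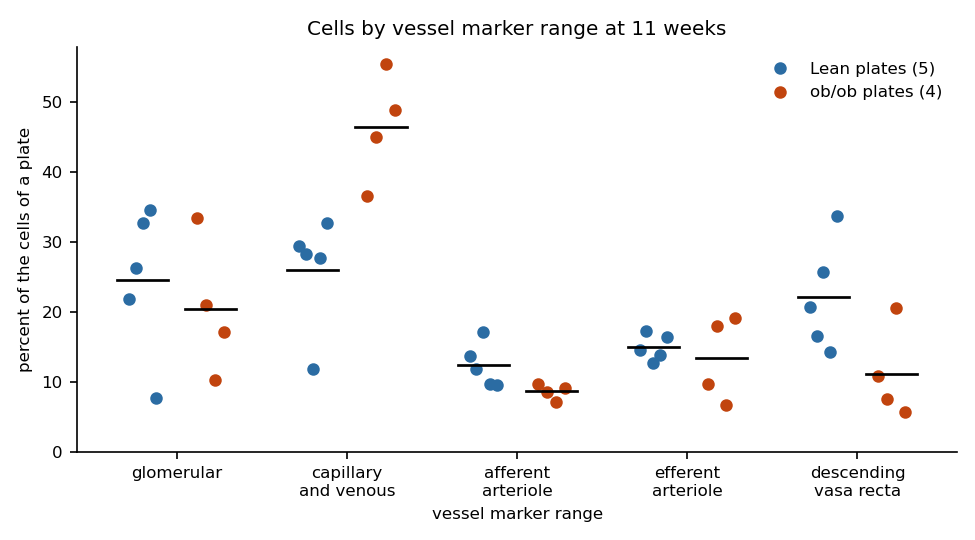
Percent of the cells of each plate placed in each of the 5 vessel marker ranges at 11 weeks; points are plates (orange, 4 ob/ob; blue, 5 Lean) and lines are means over plates. Only the capillary and venous range separates the groups, with 36.6 to 55.4% against 11.8 to 32.7%.

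The shares rest on the same genes as the ranges. Car8 of the capillary and venous list, Cxcl12 of the AA list and Tspan8 of the EA list were themselves called, and with called markers left out the capillary and venous share was 32.3 to 55.4% against 12.7 to 32.4%, a slight overlap. The capillary and venous list had a median log2 ratio of 0.74 with 6 of 7 above 0 and Igf1 at -0.91. Its sum overlapped (1748 to 3744 against 1645 to 3015). The EA list had a median of -0.47, and its sum overlapped too (755 to 884 against 689 to 819). Tested markers of the AA list had a median log2 ratio of -0.53 with 6 of 7 below 0, and their sum did not overlap (679 to 887 against 913 to 1219.6). Sox17, an arterial transcription factor, was at 171, 197, 249 and 187 against 284, 290.3, 280.1, 278 and 342 (-0.55, separated but under the fold). The 4 DVR markers had a median of -0.55, with Slc14a1 at -0.57 and Scin at -0.70, and the tip cell markers had a median of -0.81, with Apln at -0.87 and Prnd at -1.73. GEC markers had a median of -0.16, with Gata5 at -0.31 and Adamtsl5 at -0.62. No cycling marker passed the level filter, and lymphatic markers were nearly absent on several plates (Lyve1 -0.072, Mmrn1 -0.087). In cells of the EA range the median summed level of capillary and venous markers (2423) was above that of EA markers (1496), and in cells of the DVR range the median summed level of capillary and venous markers (2242) was above that of DVR markers (671) (the lists differ in how abundant their genes are). These ranges are named by their scores alone. In sums over all cells, fewer cells of a vessel type and less RNA per cell cannot be told apart.

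Ratios within a range bear on these shares. They are descriptions, since the ranges are subsets of the same cells and hold as few as 9 cells on a plate. In the GEC range 76 of 9452 genes (0.804%) were called higher and 106 (1.12%) lower by the same rule, and in the capillary and venous range 67 of 9586 (0.699%) higher and 72 (0.751%) lower. Of the 198 genes called over all cells, 38 were separate and past the fold in the same direction within the GEC range and 28 within the capillary and venous range, while 93 had ratios of the same sign in all 5 ranges.

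Ucp2, Serinc3, Gpihbp1, Hhat and Serpina3n separated in both large ranges. For Serpina3n the capillary and venous range was near the floor except on 1054s, at 0.187, 0.114, 12.3 and 0.125 against 0 to 0.104. Ucp2 was at 604, 779, 546 and 743 against 396, 386, 367, 409 and 268 in the GEC range (log2 ratio 0.87) and had a ratio of 1.38 in the capillary and venous range. For Gpihbp1 the ratios were 1.42 and 0.82, and for Serinc3 1.16 and 1.05. All 3 had ratios above 0 in the AA, EA and DVR ranges as well. Xdh and Cxcl16 separated in the GEC range (2.09 and 1.71) but not in the capillary and venous range (1.08 and -0.28), and Slc2a1 had 1.83 and 0.45, overlapping in both. Lbp, at 1.12 over all cells, overlapped in every range. It was at 101 to 176 against 73.0 to 185 in the capillary and venous range (0.24). Its ratios were 1.54, 1.11, 1.33 and 1.46 in the GEC, AA, EA and DVR ranges. Hs3st6 was at a mean of 1.87 in ob/ob cells of the GEC range and 34.1 in those of the capillary and venous range. In the latter its plates were at 55.3, 39.4, 26.9 and 15.0 against 4.67, 5.40, 0.080, 1.15 and 0.019 (log2 ratio 3.43), with 0.52 in the GEC range. The difference between ranges was not tested.

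Among lower genes, Hspa1a (-0.80), Col12a1 (-2.05), Adamts16 (-1.66), Ces2g (-1.90), Agpat5 (-2.60), Nabp1 (-2.70) and Erc2 (-3.15) were separate in the GEC range. Col12a1 was near the floor there, at 0 to 0.124 on ob/ob and 0.224 to 7.56 on Lean plates. Its levels were higher in the DVR range, at 33.6 to 99.4 against 63.5 to 109 (-0.51, overlapping). In the AA range it was at 0 to 0.599 against 23.3 to 31.6 (-4.41, separate). Erc2 was separate also in the capillary and venous range, but at the floor and under the fold (-0.47). It was at 0 on the ob/ob plates and 0.039 to 1.18 on the Lean plates there. Some other calls were smaller or absent within ranges. Car8, Cxcl12 and Tspan8 are among the markers that place cells in ranges. Their ratios within ranges, and with ranges weighted equally, are therefore partly set by that placement. Car8, a marker of peritubular and venous EC, had an overall ratio of 0.94 and ratios of -0.25, 0.17, 0.43, -0.68 and 0.11 in the GEC, capillary and venous, AA, EA and DVR ranges. Cxcl12, at -1.34 over all cells, had 0.80, -0.46, -0.22, -1.77 and -0.37 in the same order. Tspan8, a tetraspanin of EA and DVR, had -1.83, 1.20, -2.41, -1.13 and 0.21. With the 5 ranges weighted equally the ratio was -0.043 for Car8, -0.40 for Cxcl12, 0.86 for Gpihbp1 and 0.94 for Ucp2. Other called genes came closer to 0 than over all cells: Hs3st6 was at 1.60, Sdk2 at 0.72, Frs2 at 0.72, Hhat at 0.27, Vegfc at -0.60, Tspan8 at -0.79, Tppp3 at -0.67 and Erc2 at -1.46. Hhat was higher without overlap in the GEC range (7.49 to 28.9 against 0.224 to 4.24, log2 ratio 2.52) and in the capillary and venous range (1.96). In the AA and EA ranges it had -0.36 and -0.92, overlapping. In the DVR range it was lower in ob/ob without overlap, at 0.385 to 1.42 against 2.26 to 10.1 (-1.84). Under equal weighting 14 of the 81 higher and 59 of the 117 lower genes were called.

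**Figure D5:**
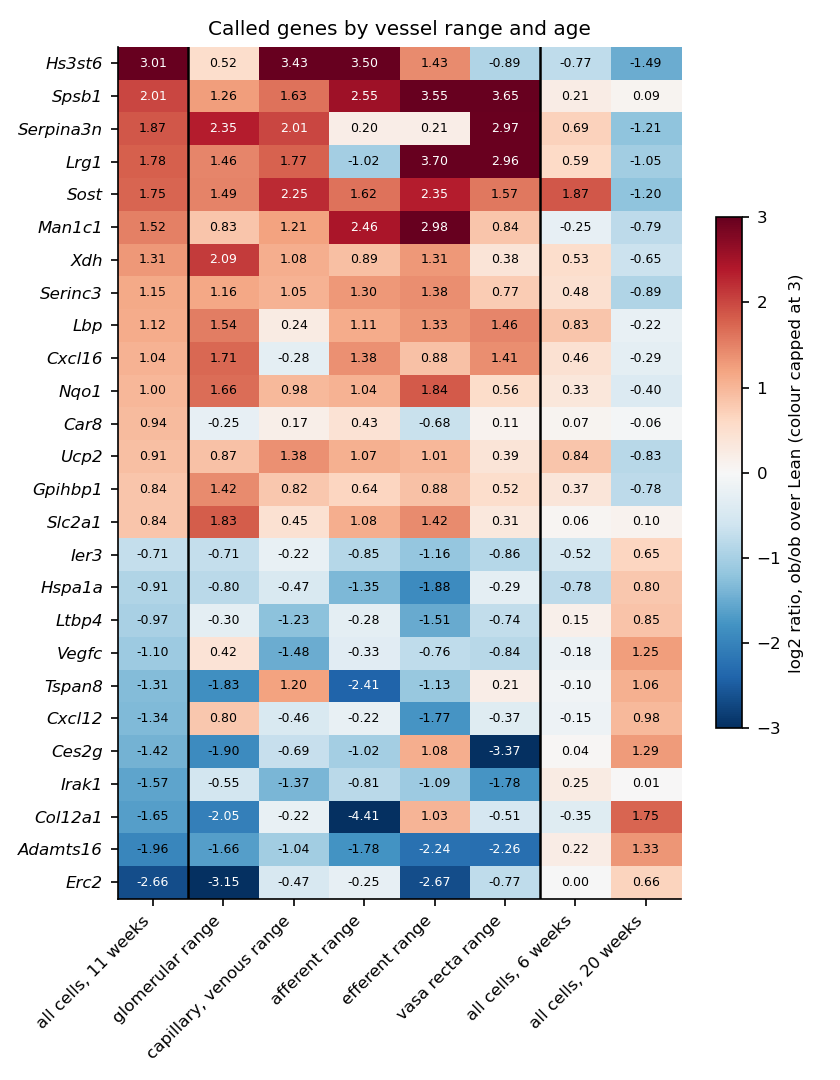
Log2 ratio of ob/ob over Lean for 26 called genes (rows) over all cells at 11 weeks, within each of the 5 vessel marker ranges at 11 weeks, and over all cells at 6 and 20 weeks (columns); red is higher and blue lower in ob/ob, with colours capped at 3. Car8, Cxcl12 and Tspan8 are among the markers that place cells in ranges. Car8 has ratios of both signs within ranges (-0.68 to 0.43) while Ucp2 and Serinc3 are above 0 in each. At 20 weeks most rows have the sign opposite to 11 weeks.

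The same genes were read at 6 and 20 weeks, in other plates. At 6 weeks (3 ob/ob and 4 Lean plates) 2.25% of genes were called higher and 1.30% lower by the same rule, and at 20 weeks (4 ob/ob and 2 Lean plates) 3.78% and 4.40%. Of all genes tested at 11 weeks, 51.8% had ratios above 0 at 6 weeks and 51.0% at 20 weeks. Of the 81 genes higher at 11 weeks, 68 had ratios above 0 at 6 weeks and 8 were called higher there, whereas 23 had ratios above 0 at 20 weeks and 14 were separate and past the fold downwards. Of the 117 lower genes, 70 had ratios below 0 at 6 weeks and 38 at 20 weeks, where 17 were separate and past the fold upwards. Both Lean plates of 20 weeks had Xist at no more than 0.085, against at least 138 on the ob/ob plates of that age.

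Sost was higher at 6 weeks (16.7 to 69.0 against 6.67 to 14.5 in Lean, log2 ratio 1.87) and lower at 20 weeks (-1.20). Hspa1a was lower at 6 weeks (242 to 254 against 280.1 to 558; -0.78) and higher at 20 weeks (0.80). Hs3st6 was not separate at 6 weeks (0.387 to 2.93 against 1.01 to 4.23; -0.77), and at 20 weeks it was lower (0 to 6.30 against 7.93 to 9.91; -1.49). Lbp was higher at 6 weeks (0.83, separate) and overlapped at 20 weeks (-0.22). Ucp2 had log2 ratios of 0.84, 0.91 and -0.83, Serinc3 of 0.48, 1.15 and -0.89, and Ces2e of -0.34, -0.63 and 0.94 at 6, 11 and 20 weeks. Differences between ages were not tested.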

How the data were processed

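Single kidney EC were profiled by SmartSeq2 without molecular identifiers. Per the study's methods and the submitters' processing notes, reads were aligned with TopHat2 2.1.1 to GRCm38 (mm10), duplicates were removed with SAMtools 0.1.18 and reads counted per gene with featureCounts of Subread 1.4.6-p5. The deposited values are raw counts per gene and cell, and the authors removed cells under 50000 counts and cells expressing genes of epithelium. Removing duplicates of single-end reads by position can compress the counts of short, highly expressed genes. Annotation release and strand setting are not given in the sources used here.

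All cells of a plate were summed, scaled to 500000 and averaged over the plates of a genotype. Genes with a mean of at least 5 over the 9 plates were kept, and 1 was added before the log2 ratio. A call needed a 1.5-fold ratio, the fold that the study used, and plates that did not overlap. The 106 genes named are the 15 largest and 15 smallest called ratios that stay past the fold without any 1 plate, leaving out genes with only a clone or model number and pseudogenes, all called members of a gene or marker list, the 2 largest ratios of a list without a called member, the leptin receptor, endothelial and X-linked genes, Ucp2, Serinc3 and Ces2e, and 10 genes picked after their values were seen (Gpx3, Bgn, Rgcc, Lfng, Thrsp, Hbegf, Nop58, Gar1, Rrp15 and Lsg1). The members of the comparison, the lists and the rules were chosen with earlier results of these data known. Some list genes, Lep among them, are not analysed here. No doublet caller was run; no 2 cells had the same counts. Gene positions and promoter windows are RefSeq's on GRCm38.p6. The ratio and call were tested on simulated data. Alternatives covered scaling (TMM in edgeR 4.0.16, median-of-ratios size factors, other totals, equal weight per cell, thinning), the added constant (0.1 and 5), the level filter (1, 20 and none), each plate left out, cells with RNA of other cell types left out, and equal weight for 5 vessel marker ranges. Work was done in Python 3.11.15 with numpy 2.4.6 and scipy 1.17.1, and in R 4.3.3.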

Additional observations from a re-analysis of the deposited data

Results flagged for a closer look

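For 13 of 188 sets of plates looked at (each called gene named and each list, in 1 genotype), 1 plate lay far from the others by Dixon's criterion (gap over range above 0.829 for 4 plates or 0.71 for 5); chance alone gives about 1 in 20. Among ob/ob plates these were Serpina3n on 1052s (level 34.0), Ces2g on 1054s (9.69), Adamts16 on 1053s (5.36), Erc2 on 1053s (2.08), the VEGF, Notch and angiopoietin list on 1053s (summed level 5644), the lymphatic markers on 1052s (54.0) and the mural and mesangial markers on 1053s (15.5). Among Lean plates they were Vegfc on 1060s (30.8), Nfkbid on 1060s (18.7), the mitochondrial genome list on 1060s (2235), the fatty acid and PPAR list on 1050s (1856), the fibroblast markers on 1058s (7.78) and the erythroid markers on 1060s (7.15).

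At 20 weeks the plates of some named genes separated in the direction opposite to 11 weeks. Of genes higher in ob/ob at 11 weeks, the log2 ratio at 20 weeks was -1.49 for Hs3st6, -1.24 for Mfap2, -1.20 for Sost, -1.10 for Lfng, -1.05 for Lrg1, -0.89 for Serinc3, -0.84 for Rgcc, -0.83 for Ucp2 and -0.78 for Gpihbp1. Of genes lower at 11 weeks, it was 1.29 for Ces2g, 0.84 for Nop58, 0.80 for Hspa1a, 0.74 for Rrp15, 0.73 for Rtn4ip1 and 0.57 for Lsg1. The difference between the ages was not tested, and the 20-week ratios rest on 2 Lean plates, both without Xist.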

How the results depend on the processing

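No paired analysis was possible because the plates of the groups share no number and the results come from no test. The 81 genes higher and 117 lower became 97 to 136 and 145 to 269 when 1 plate was left out, with the highest counts without 1052s; leaving out a plate leaves fewer to overlap. Leaving out 1052s, 1054s, 1056s or 1060s brought the higher count past 1.5 times the count of all plates, and leaving out any of these or 1053s did so for the lower count. Without plates 1050s and 1051s, chosen after seeing the data, the counts were 191 and 269. A level filter of 20 gave 53 and 43, no filter gave 198 lower, TMM factors and size factors gave the splits above (98 to 82 and 114 to 66), and equal weight for the vessel marker ranges gave 29 and 251. The 51 called genes that are named kept the sign of their ratio under each alternative, with 1 exception. Car8, among the markers that place cells in ranges, was at -0.043 with ranges weighted equally. Cxcl12 was at -2.28 without cells rich in other cell type markers.

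List medians moved by more than the SD over plates in these cases, for which the cause was not tested. With ranges weighted equally the median was -0.034 for cholesterol synthesis, 0.077 for VEGF, Notch and angiopoietin, -0.17 for integrated stress and 0.14 for fenestrae, glycocalyx and permeability. With median-of-ratios size factors it was -0.011 for translation initiation factors and 0.025 for VEGF, Notch and angiopoietin. With a level filter of 20 it was 0.30 for the fatty acid and PPAR list and 0.094 for the leptin list, and with no filter 0.049 for sex-linked genes (0.58 with it). The fatty acid and PPAR median was -0.14 without cells rich in other cell type markers, and the clock median 0.79 without plates 1050s and 1051s. With 1 plate left out, the medians ran from -0.076 to 0.23 for the fatty acid and PPAR list, -0.048 to 0.15 for adhesion and coagulation (lowest without 1052s) and -0.25 to -0.074 for the neighbours of Lep (lowest without 1052s). Counting error is small at these depths, while the number of animals behind a plate is unknown and limits every ratio.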

Other observations

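Other called genes, picked after their values were seen, add to the groups above. Bgn, the matrix proteoglycan biglycan, was at 348, 357, 589 and 451 against 207, 149, 208, 221 and 249 (log2 ratio 1.07), with 2.50 in the GEC range and 0.24 in the capillary and venous range. Rgcc, a regulator of the cell cycle induced by complement, was at 365, 650.4, 367 and 456 against 328, 258, 176, 227 and 233 (log2 ratio 0.91). Its lowest ob/ob plate, 1052s, was not far above Lean plate 1050s. Rgcc had 1.60 in the GEC range and 0.96 in the EA range, separate in both. It had 0.48, 0.31 and -0.54 in the capillary and venous, AA and DVR ranges, overlapping in each. Thrsp, a nuclear protein linked to fat synthesis, was at 103, 148, 132 and 176 against 71.6, 72.7, 74.1, 69.4 and 83.8 (log2 ratio 0.90), and Lfng, which modifies Notch receptors with sugar, at 29.9, 44.3, 17.8 and 25.2 against 12.5, 14.4, 8.96, 13.3 and 16.7 (log2 ratio 1.10). Thrsp had 1.61 in the GEC range and 1.48 in the EA range, separate in both. Its ratios in the capillary and venous, AA and DVR ranges were 0.54, 0.59 and -0.30, overlapping in each. Hbegf, an EGF receptor ligand, was at 85.8, 60.7, 56.4 and 52.9 against 119.6, 131, 166, 155 and 128 (log2 ratio -1.12).

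Genes of ribosome assembly were among the lower calls. The small nucleolar ribonucleoprotein Nop58 was at 19.4, 13.6, 9.28 and 12.9 against 37.8, 28.3, 34.1, 35.0 and 32.8 (log2 ratio -1.22), with no plate near the other group. The H/ACA ribonucleoprotein Gar1 was at 4.22, 3.90, 3.00 and 2.25 against 10.2, 8.18, 5.22, 10.2 and 6.43 (log2 ratio -1.06), the assembly factor Rrp15 at 4.78, 7.43, 11.5 and 3.88 against 17.1, 13.9, 17.3, 15.5 and 13.1 (log2 ratio -1.05) and the export GTPase Lsg1 at 14.0, 15.9, 9.80 and 13.9 against 22.2, 29.8, 28.4, 28.9 and 24.0 (log2 ratio -0.94). In the GEC range their ratios were -1.97, -1.50, -1.09 and -1.82, and with ranges weighted equally -1.68, -1.31, -0.96 and -1.37. In the capillary and venous range they were -1.20, -0.65, -1.55 and -0.29, and only Rrp15 was separate there. Gar1 was at 0.015 in the AA range. No list of such genes was set up, so no count or median stands behind this group.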
